A study of Mus musculus with 2 samples.

Results

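*Mbp*, *Pmp22*, *Prx*, *Mag* and *Sox10*, which encode 4 proteins of myelin and of the cells that make it and 1 transcription factor of Schwann cells, were followed across sections of a sham-loaded and a mechanically loaded mouse femur. These 5 genes, of 19465 measured, were chosen by their UMI counts in bone, which were lower in the Loaded section, so their values in bone are a description, and the question asked here is whether the difference reaches beyond bone. Gene expression was measured with Visium spots on formalin-fixed, paraffin-embedded tissue, 1 section from 1 femur per group. Both animals were female bone cell reporter mice, which carry fluorescent labels for bone-forming and bone-resorbing cells. They received a mid-shaft femoral defect at 12 weeks of age, had bridged it 3 weeks later, and were euthanized at 17 weeks. From week 3 to week 5 after surgery the Loaded femur received cyclic compression in 3 sessions per week and the Control femur received the same handling without load. With 1 section per group there is no replicate, no test can be given, and every 95% interval below covers counting error only. Animal, section plane and treatment cannot be told apart.

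Myelin outside the brain and spinal cord is made by Schwann cells, which wrap the larger axons of a nerve in layers of their own membrane. The wrapped membrane is held together by a small set of abundant proteins, and the program that makes it is switched on by the transcription factors SOX10 and EGR2. The periosteum, the marrow and the muscle around a femur are all innervated, and most of the nerve fibers within bone itself are thin. A Visium spot is wider than a cell, so a nerve bundle and the tissue beside it can share a spot, and fewer Schwann cells cannot be told apart from less RNA per Schwann cell.

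Spots were placed in 3 regions. Bone spots were those whose barcodes the study assigned to bone, 131 in the Control and 146 in the Loaded section. Rim spots were the other spots with a center within 250 μm of a bone spot, 253 and 264 of them, and the remaining spots numbered 1514 and 1021. These are the spots with at least 500 UMIs (unique molecular identifiers, each a captured molecule) and 250 genes, and they held a median of 2289 UMIs in the Control and 2638 in the Loaded section. The sections shared 557 spot barcodes, which mark spot positions and not shared tissue. In bone, skeletal muscle genes took 15.7% of Control and 8.33% of Loaded UMIs, granulocyte genes 0.0894% and 0.368%, and osteoblast and osteocyte genes 0.831% and 2.52%. In the rim the muscle shares were 18.6% and 12.0%, and in the remaining spots 30.2% and 20.3%. The part of these differences in the results below was not tested beyond the spot sets named. The 5 genes of oligodendrocytes, which make myelin in the brain and spinal cord, together gave 14 UMIs in the Control and 13 in the Loaded section, and over the same spots the 5 myelin and Schwann cell genes gave 1553 and 891.

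*Prx* lies on chromosome 7 (chr7:27499324-27520214, plus strand, GRCm38) and encodes periaxin, a scaffold of the Schwann cell membrane. *Mag*, on the same chromosome (chr7:30899176-30914873, minus strand), encodes a glycoprotein of the membrane that faces the axon. *Pmp22* (chr11:63128982-63159547, plus strand) encodes a membrane protein of compact myelin and is also transcribed in fibroblasts. *Sox10* (chr15:79154908-79165240, minus strand) encodes the transcription factor that Schwann cells need at every stage. The RefSeq promoter table (GRCm38.p6) held 3 of the 5 genes. The 250 bases before the most upstream start of each are shown, 5′ to 3′ on the strand of the gene, because SOX10 and EGR2 switch on the myelin program, with any match in capitals to the SOX motifs ACAAAG and ACAATG or the EGR motif GTGGGCG on either strand.
Pmp22, chr11:63128732-63128981, plus strand: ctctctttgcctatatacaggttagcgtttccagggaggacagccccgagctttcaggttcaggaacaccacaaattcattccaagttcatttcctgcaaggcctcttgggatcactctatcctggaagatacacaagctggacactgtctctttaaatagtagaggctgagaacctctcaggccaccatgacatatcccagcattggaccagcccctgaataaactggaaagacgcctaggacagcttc
Prx, chr7:27499074-27499323, plus strand: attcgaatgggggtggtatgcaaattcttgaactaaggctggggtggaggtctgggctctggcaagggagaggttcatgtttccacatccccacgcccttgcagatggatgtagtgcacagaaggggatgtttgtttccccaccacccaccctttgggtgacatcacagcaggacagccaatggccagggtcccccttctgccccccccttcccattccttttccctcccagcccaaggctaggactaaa
Mag, chr7:30914923-30915172, minus strand: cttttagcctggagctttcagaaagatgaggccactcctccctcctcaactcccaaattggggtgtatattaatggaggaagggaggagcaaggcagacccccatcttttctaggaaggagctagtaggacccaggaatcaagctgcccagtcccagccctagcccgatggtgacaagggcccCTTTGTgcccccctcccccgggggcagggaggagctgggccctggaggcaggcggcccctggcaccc
Only the *Mag* window held a match, ACAAAG on the other strand with its first base 67 bases before the start. Among all 32851 windows of this length 16.5% held ACAAAG, 10.7% ACAATG and 7.02% GTGGGCG, so that 1 match in 3 windows says nothing particular of these genes.

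*Mbp*, a gene on chromosome 18, encodes the basic protein that holds the inner faces of the myelin membrane together, and its locus also gives transcripts in blood cells. In bone it gave 98 UMIs in the Control section, in 55 of 131 spots, and 28 in the Loaded section, in 24 of 146 spots. *Pmp22* gave 170 and 49 UMIs, *Prx* 21 and 4, *Mag* 2 and 1, and *Sox10* 3 and 0. The highest count of a single bone spot was 12 for *Pmp22* and 6 for *Mbp* in the Control section, and 2 for each of them in the Loaded section. Levels are given as normalized counts per spot, the UMIs of a region divided by the sum of its size factors, where a spot of average content has a factor of 1. On this scale *Mbp* stood at 0.565 in Control and 0.217 in Loaded bone, a log2 ratio of Loaded over Control of −1.38 (95% interval −2.04 to −0.76). *Pmp22* stood at 0.980 and 0.380 (−1.37, −1.86 to −0.90) and *Prx* at 0.121 and 0.0310 (−1.97, −3.97 to −0.40). The 3 genes with at least 10 UMIs over both bone regions were all lower by 2-fold or more, where 8.11% of the 10003 genes with as many UMIs were. Since this is the contrast that chose them, nothing is read from that count. *Mag* and *Sox10* had too few UMIs in bone for a direction. Summed, the 5 genes gave 294 Control and 82 Loaded UMIs (log2 ratio −1.42, −1.79 to −1.06), beside a median log2 ratio of 0.12 over all genes with enough UMIs in bone.

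The rim around bone, whose spots were not used to choose the genes but come from the same 2 sections, showed a difference of the same size. *Mbp* gave 165 UMIs in Control and 65 in Loaded rim spots, *Pmp22* 290 and 120, *Prx* 47 and 5, *Mag* 13 and 0, and *Sox10* 9 and 1. The log2 ratio was −1.46 for *Mbp* (−1.90 to −1.04), −1.39 for *Pmp22* (−1.71 to −1.08), −3.35 for *Prx* (−5.04 to −2.02) and −3.29 for *Sox10* (−8.74 to −0.43). For *Mag*, with the floor of 3 UMIs in place of 0, the level was at least 4.69-fold lower in the Loaded rim. *Mbp* and *Pmp22* were thus lower by 2-fold or more. *Mag* and *Sox10* reached 10 UMIs through the Control section, so that their direction was close to fixed by that limit and they are not counted here. *Prx* also reached that limit through the Control section and is not counted either. In the rim 6.58% of the 11704 genes with at least 10 UMIs were lower and 7.42% higher to that extent, and the median over those genes was 0.00. The summed log2 ratio was −1.57 (−1.82 to −1.33, from 524 and 191 UMIs). It was −1.69 (−1.98 to −1.41) on the outer side of the bone, −1.21 (−1.77 to −0.66) on the side of the marrow cavity and −1.17 (−2.32 to −0.16) beyond the ends of the bone region. On the cavity side *Mbp* alone was at −0.42 (−1.24 to 0.41), from 25 Control and 29 Loaded UMIs. *Pmp22* was at −1.50 (−2.45 to −0.60) there. The summed rim difference rested on 1 side of the Control bone, as described further down.

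**Figure D1:**
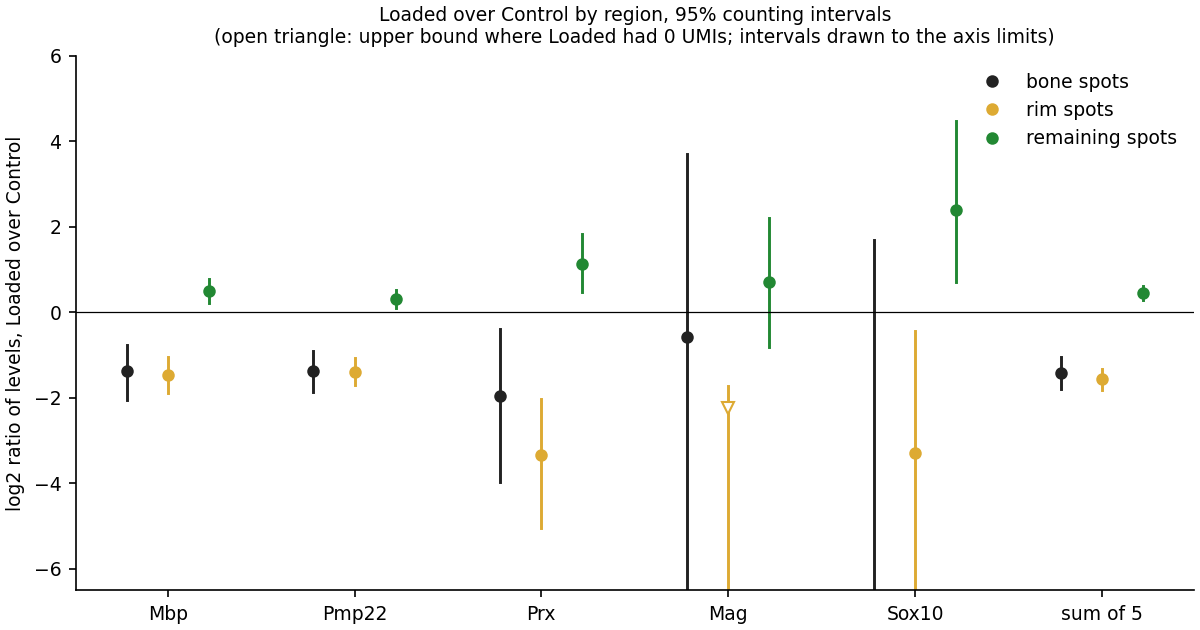
Log2 ratio of Loaded over Control (vertical axis) for each gene and for their sum, in bone (black), rim (yellow) and remaining spots (green). Lines are 95% counting intervals, cut off at the axis limits, and the open triangle is the bound for Mag in the rim. The summed genes sit at −1.42 in bone, −1.57 in the rim and 0.45 in the remaining spots.

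In the remaining spots none of the 5 genes was lower in the Loaded section. *Mbp* gave 227 UMIs in Control and 198 in Loaded spots, levels of 0.152 and 0.215 and a log2 ratio of 0.50 (0.22 to 0.78). *Pmp22* gave 461 and 352 UMIs (0.31, 0.11 to 0.51), *Prx* 34 and 46 (1.14, 0.46 to 1.82), *Mag* 9 and 9 (0.70, −0.81 to 2.21) and *Sox10* 4 and 13 (2.40, 0.71 to 4.47). None of the 5 was lower by 2-fold or more, where 5.6% of 15485 genes were, and *Prx* was higher to that extent, where 6.78% were. *Sox10* reached 10 UMIs through the Loaded section, so that its direction was close to fixed by that limit and it is not counted as higher. Of its 13 Loaded UMIs, 11 lay in the upper right block. The summed log2 ratio was 0.45 (0.29 to 0.61, from 735 and 618 UMIs). Its sign was not stable. It was −0.10 (−0.60 to 0.38) over spots with a muscle share below 5%, 0.66 (0.46 to 0.86) over spots with a share of at least 10%, and −0.28 (−0.47 to −0.08) when 1 of the 4 blocks of each section was left out, the lower left block of the Control and the upper right block of the Loaded section. Control blocks are named along its oblique shaft, as described further down. Over all spots of the sections the 5 genes differed less, with a summed log2 ratio of −0.28 (−0.40 to −0.16).

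Pooled over the sides of the bone, the level changed with distance from bone in the Control section, while the intervals of the Loaded distance classes overlapped one another. The summed Control level was 1.69 normalized counts per spot in bone (1.51 to 1.90), 1.90 in spots up to 150 μm away and 1.66 between 150 and 250 μm. It was 0.689 between 250 and 500 μm, 0.288 between 500 and 1000 μm and 0.531 beyond (0.482 to 0.584). The Loaded level stayed between 0.552 and 0.709 in all 6 distance classes. Within the Control section bone stood above the remaining spots by 1.79 on the log2 scale (1.59 to 1.98) and the rim by 1.87 (1.70 to 2.03). These pooled values exceeded those of either side of the midline. The right side, where the level was higher, held 126 of the 253 rim spots and only 298 of the 1514 remaining spots. On the left the bone stood above the remaining spots by 0.99 (0.56 to 1.397) and the rim by 0.16 (−0.28 to 0.56), and on the right the values were 1.09 (0.82 to 1.35) and 1.35 (1.12 to 1.58). Within the Loaded section the same differences were −0.08 (−0.43 to 0.26) and −0.16 (−0.40 to 0.08). *Prx* was lower in the Loaded rim than in the remaining Loaded spots, by a log2 ratio of −1.66 (−3.35 to −0.34). The pooled Control level thus fell toward that of the Loaded section between 250 and 500 μm from bone, where the intervals of the sections overlapped.

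**Figure D2:**
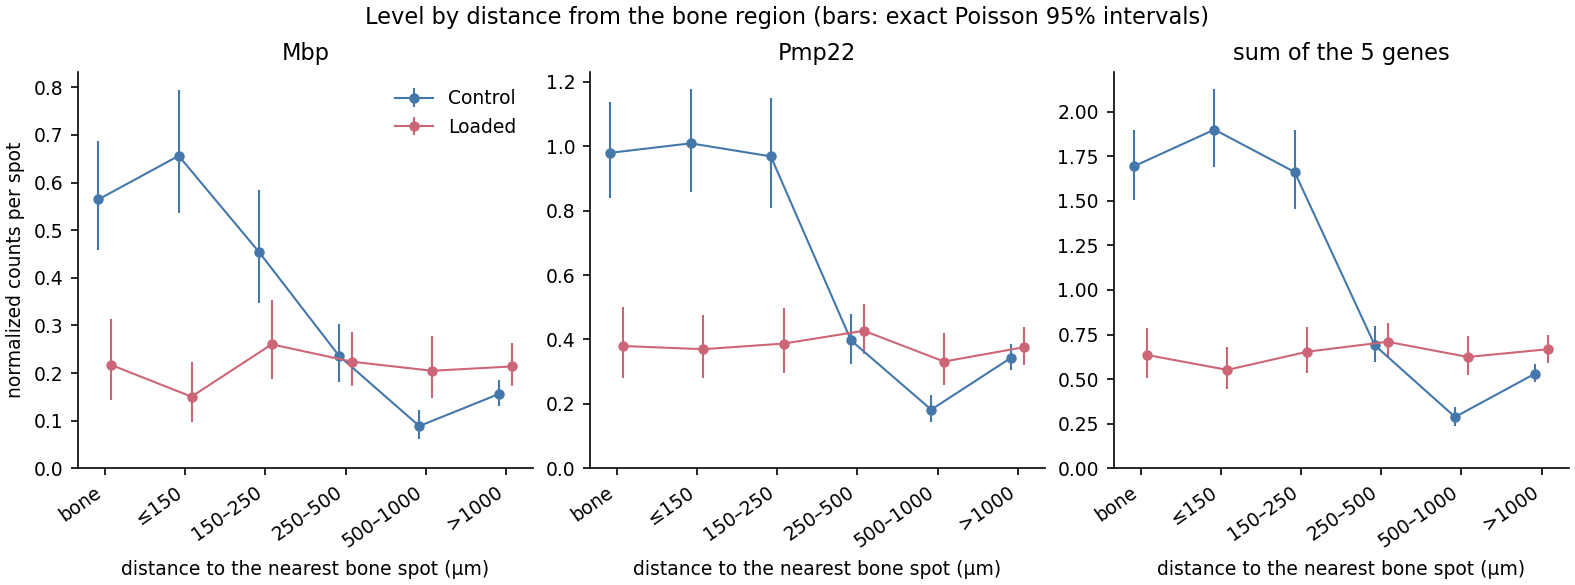
Level in normalized counts per spot (vertical axis) by distance to the nearest bone spot in μm, for Mbp, Pmp22 and the sum of the 5 genes, Control in blue and Loaded in red. Bars are exact Poisson 95% intervals. The summed Control level drops from 1.66 between 150 and 250 μm to 0.689 between 250 and 500 μm, and the Loaded level lies between 0.552 and 0.709 throughout.

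The Control counts were not spread evenly around the bone. In both sections the bone spots form 2 walls, on either side of the marrow cavity, called left and right in the Control and upper and lower in the Loaded section. The Control shaft lies obliquely on the array, so its left wall lies to the upper left and its right wall to the lower right of the cavity. Control sides and blocks are named along these tilted directions. The right Control wall gave 239 of the 294 bone UMIs, a level of 2.32 (2.04 to 2.63), and the left wall gave 55, a level of 0.780 (0.587 to 1.02). Right over left, the log2 ratio was 1.57 (1.15 to 2.02) in bone and 2.98 (2.42 to 3.60) in the outer rim, where the right side gave 382 UMIs and the left side 27. Each of the better counted genes showed this side difference in bone, *Mbp* with 77 and 21 UMIs (1.33, 0.62 to 2.10), *Pmp22* with 137 and 33 (1.51, 0.95 to 2.10) and *Prx* with 20 and 1 (3.78, 1.13 to 9.15). All 3 *Sox10* and both *Mag* UMIs of Control bone lay in the right wall. Muscle genes took 25.2% of the UMIs of the left wall and 6.54% of the right. Tendon and fibroblast genes took 0.262% on the left and 1.28% on the right in bone, and 0.202% and 1.46% in the outer rim. The part of muscle and of tendon and fibroblasts in the side difference was not tested.

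The walls of the Loaded section did not differ in this way. Their bone levels were 0.637 (0.465 to 0.853) in the upper and 0.633 (0.445 to 0.872) in the lower wall, and lower over upper the log2 ratio was −0.01 (−0.68 to 0.65) in bone and −0.38 (−0.95 to 0.17) in the outer rim. Against the right Control wall, the upper Loaded wall stood at −1.86 (−2.36 to −1.40) and the lower at −1.88 (−2.42 to −1.37). Against the left Control wall, the values were −0.29 (−0.89 to 0.30) and −0.30 (−0.94 to 0.33), with intervals that include 0. With all Control spots to the right of the midline left out, an alternative chosen after the data were seen, the summed log2 ratio was −0.30 (−0.81 to 0.22) in bone and 0.46 (0.02 to 0.93) in the rim. The difference of the summed 5 genes thus lay mainly against the right wall of 1 Control section, and the labels do not say which anatomical side any wall is.

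**Figure D3:**
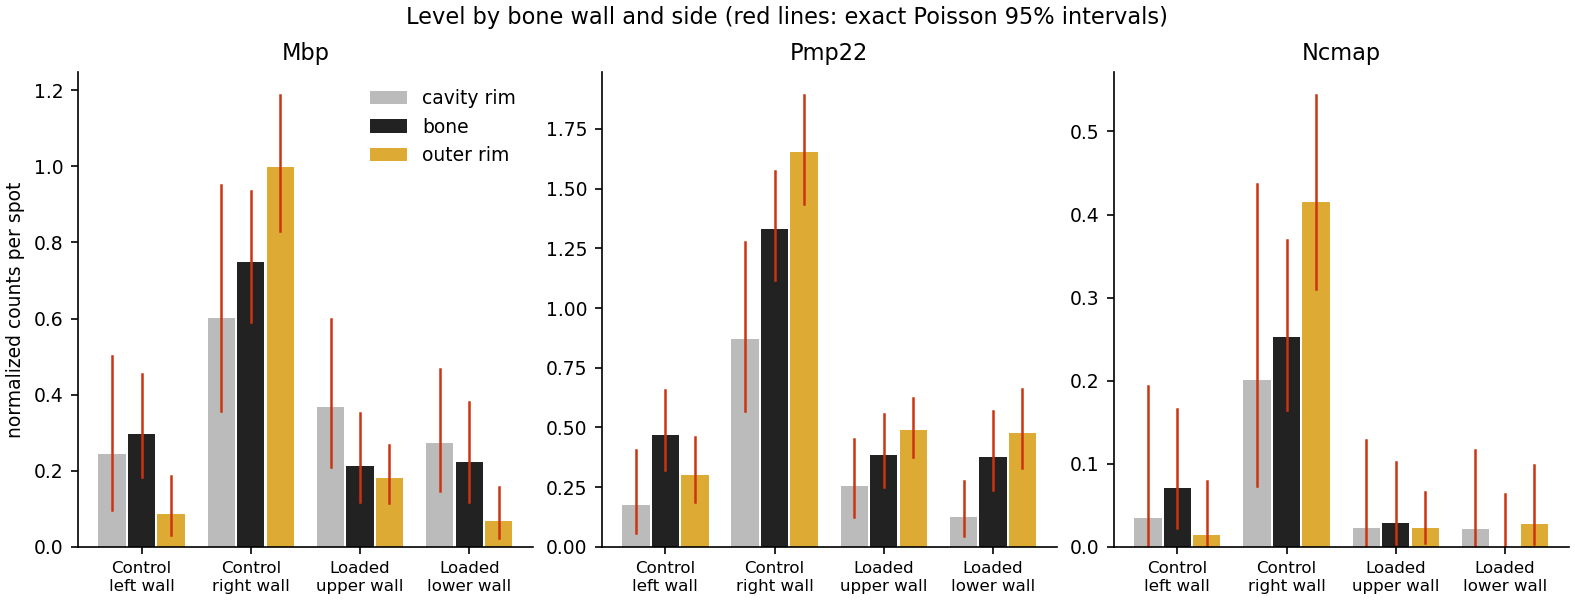
Level in normalized counts per spot (vertical axis) of Mbp, Pmp22 and Ncmap by wall and by position, the rim on the cavity side in grey, bone in black and the outer rim in yellow. Red lines are exact Poisson 95% intervals. The outer rim of the right Control wall is the highest bar for each gene, and Ncmap, a myelin gene outside the 5, reaches 0.415 there and 0.0143 on the left.

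Much of the signal of Control bone and rim lay in a limited number of spots. Ranked by UMIs of the 5 genes, 17 of the 20 highest Control spots lay along the right wall. Of these, 4 were among its 62 bone spots and 13 among its 50 outer rim spots, of 1898 Control spots in all. The highest spot held 36 UMIs, of which 11 were *Mbp*, 17 *Pmp22*, 7 *Prx* and 1 *Mag*. It also held 2 UMIs of *Ncmap*, which encodes a myelin-associated protein and was not used to rank the spots. *Ncmap* was found in 3 of the 4 bone spots and in 12 of the 13 outer rim spots. Among all spots of the right wall it was found in 18 of 62 in bone and 22 of 50 in the outer rim. The part of spot depth in this was not tested. In the Loaded section 16 of the 20 highest spots were remaining spots, a class that made up 71.35% of all its kept spots, so that little is read from that count. Of the 16 spots, 12 lay on the upper side, 6 of them with *Ncmap*, and 4 on the lower side, 0 of them with it. The highest spot held 34 UMIs and 3 of *Ncmap*. It lay 1375 μm from the nearest bone spot, and the next 3 spots held 12 UMIs each. The 20 highest spots of each region held 56.8% of the UMIs of the 5 genes in Control bone, 57.6% in the Control rim and 19.3% in the remaining Control spots, and 56.1%, 40.8% and 25.4% in the Loaded section. These regions held 131, 253 and 1514 Control spots and 146, 264 and 1021 Loaded spots, so the percentages cannot be compared directly between regions. In Loaded bone, 82 UMIs lay at most 3 to a spot and 62.3% of spots had none, so its value reflects sparse counts. Another alternative chosen after the data were seen left out the 20 highest spots of each section. The summed log2 ratio was then −1.18 (−1.56 to −0.81) in bone and −0.99 (−1.27 to −0.71) in the rim. In bone this kept 234 of 294 Control UMIs and all 82 Loaded UMIs, so it says little there. In the rim it kept 281 Control and 170 Loaded UMIs, and the rim difference was smaller but not limited to these spots.

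**Figure D4:**
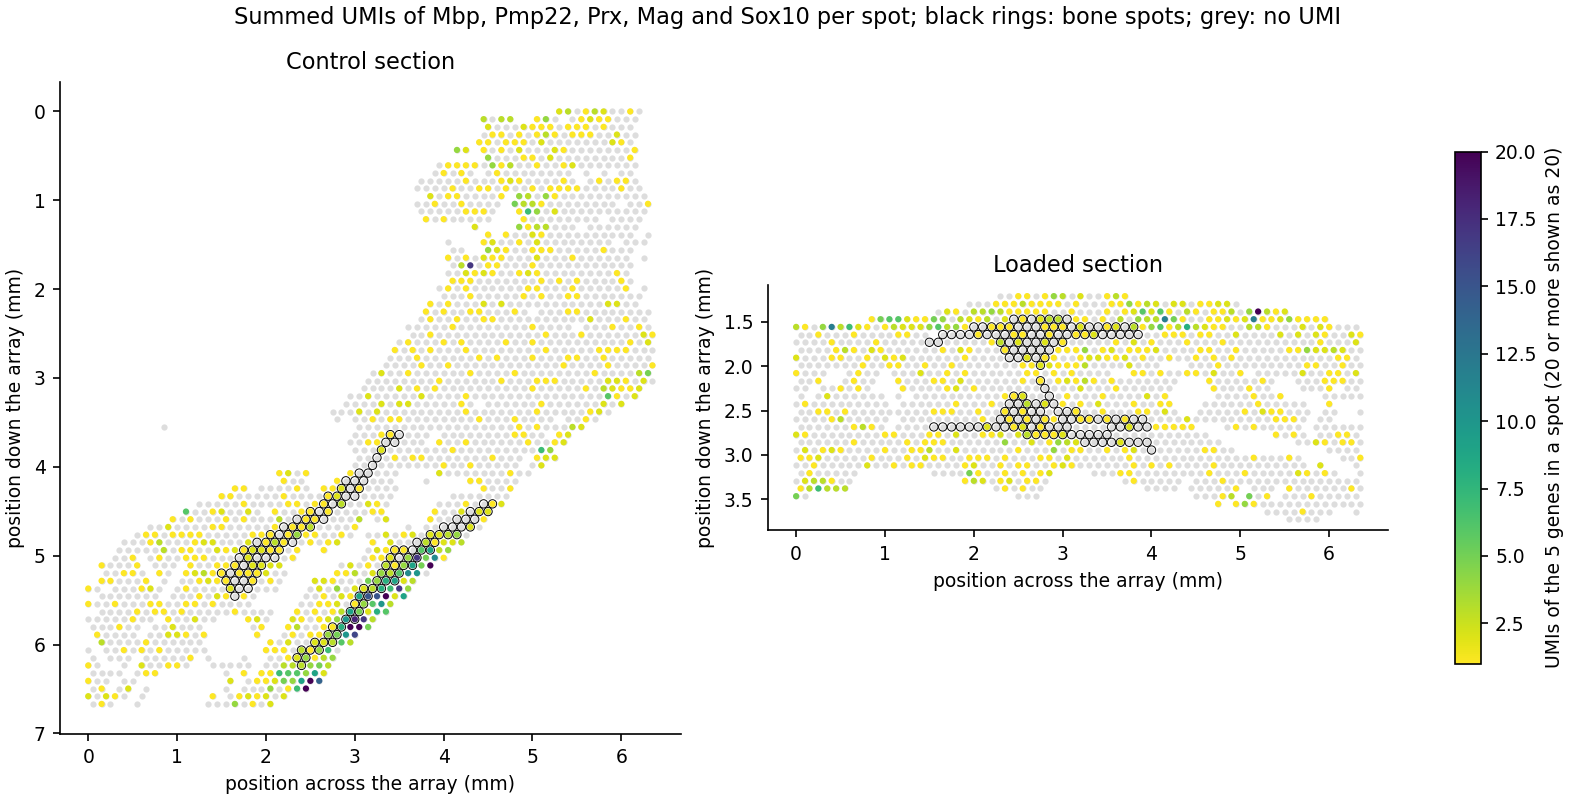
Spots of both sections at their place on the array (axes in mm), colored by the summed UMIs of Mbp, Pmp22, Prx, Mag and Sox10, with bone spots ringed in black and spots without such a UMI in grey. Dark spots, up to 36 UMIs, line the outer side of the right Control wall, which lies to the lower right of the cavity. The darkest Loaded spot, of 34 UMIs, lies away from bone.

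Shares of spots with a UMI were compared after thinning each spot to 1000 UMIs, as the share expected over all random draws of that size. In bone, the share with a UMI of any of the 5 genes was 35.2% of 131 Control spots (binomial interval at the expected count, 27.0 to 44.0%). It was 18.5% of 131 Loaded spots (12.2 to 26.2%), after 15 Loaded spots below that depth were left out. In the rim the shares were 28.7% (23.2 to 34.7%) and 15.7% (11.5 to 20.8%), with 4 Control and 8 Loaded spots left out, and in the remaining spots 13.5% (11.7 to 15.5%) and 14.8% (12.6 to 17.2%). At this depth the intervals of the sections did not overlap in bone or in the rim and overlapped in the remaining spots. These intervals treat the spots of 1 section as independent draws, which they are not, and the genes were chosen by their counts in bone. Whether intervals overlap is thus a description and not a test. Thinned to 500 UMIs, the intervals overlapped in bone (14.1 to 28.6% in Control and 5.18 to 15.3% in Loaded), and without thinning they overlapped in the rim (44.3 to 56.9% and 36.4 to 48.6%). The oligodendrocyte genes, which should be absent, gave shares of 0.905% and 0.266% in bone, 0% and 0.809% in the rim (0 Control spots, which allows a share of up to 1.47%), and 0.298% and 0.399% in the remaining spots. Without thinning, 67.2% of Control and 37.7% of Loaded bone spots held a UMI.

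Other genes of myelin and Schwann cells, 24 in a list that does not include the 5, were read in the same regions. In bone 9 of them had at least 10 UMIs, 6 were lower in Loaded by 2-fold or more and none was higher, where 8.11% of all genes with as many UMIs were lower and 13.2% higher, with a median log2 ratio of −1.22. In the rim 12 of 17 were lower and none higher, with a median of −1.78, where 6.58% of all genes were lower and 7.42% higher. In the remaining spots none of 20 was lower and 7 were higher, with a median of 0.82, where 5.6% were lower and 6.78% higher. These genes share cells with the 5 and come from the same sections, so they are not independent evidence. The list was also chosen with earlier results of these data known. A gene can reach 10 UMIs through 1 section alone, as *Cadm4* did in bone, so that its direction is close to fixed. The counts of this list are thus a description. *Ncmap* gave 31 and 2 UMIs in bone and 62 and 8 in the rim, log2 ratios of −3.53 (−6.63 to −1.55) and −3.07 (−4.34 to −2.002), and 33 and 37 in the remaining spots (0.86, 0.15 to 1.59). It reached the 20 UMIs in bone needed to be named through the Control section, so that its direction in bone was close to fixed by that limit. *Cadm4*, an adhesion protein between Schwann cell and axon, gave 13 and 0 UMIs in bone, at least 3.22-fold lower. It is named because it had 0 UMIs in 1 bone region and at least 10 in the other, so a large difference was built into its choice. *Scn7a*, a sodium channel, gave 25 and 8 (−1.22, −2.58 to −0.02).

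The other named genes of the list were nearer to 0 in bone, with intervals that overlapped that of *Scn7a*. *Cnp*, an enzyme of the myelin membrane, gave 60 and 27 UMIs in bone (−0.73, −1.44 to −0.05), and *Cd9*, a tetraspanin of many cell types, 101 and 45 (−0.74, −1.28 to −0.22). *S100b*, a calcium-binding protein of Schwann cells that fat and cartilage cells also make, gave 27 and 10 (−1.01, −2.22 to 0.09), and it was the gene among these with a lower level in the remaining spots too (−0.52, −0.96 to −0.10). In the right Control wall the summed level of the 24 genes was 2.69 (2.38 to 3.03) in bone and 3.75 in the outer rim, and in the left wall it was 1.01 (0.786 to 1.27) and 0.714. The side difference of the 5 genes was thus also present in these.

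**Figure D5:**
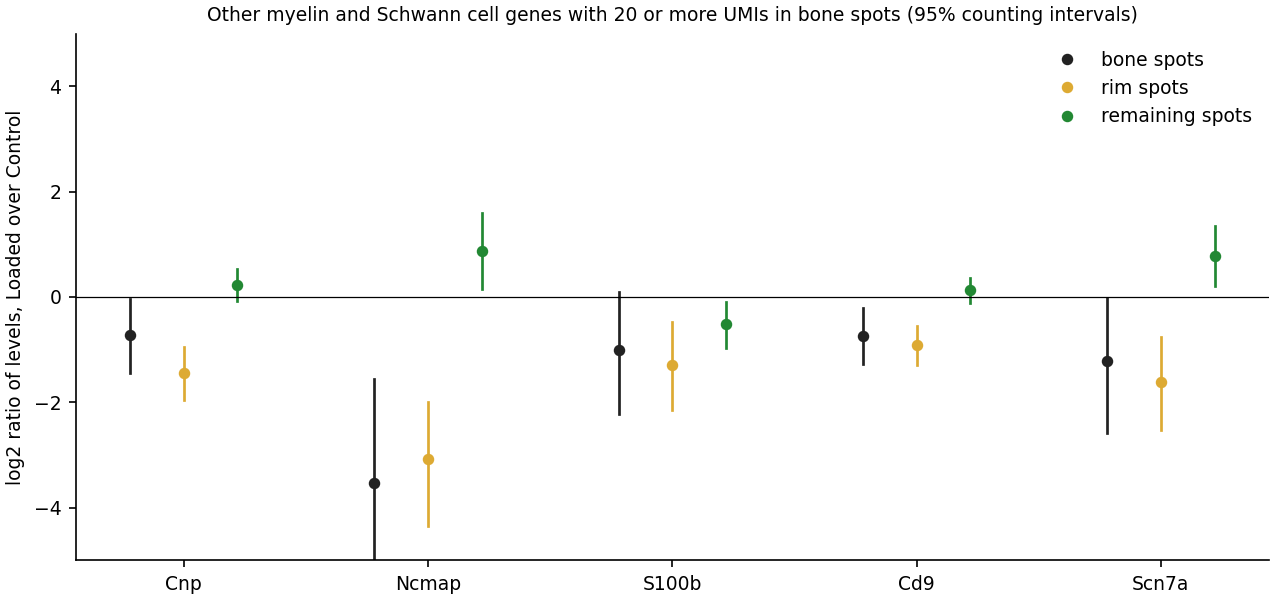
Log2 ratio of Loaded over Control (vertical axis) for the other myelin and Schwann cell genes with at least 20 UMIs over both bone regions, in bone (black), rim (yellow) and remaining spots (green), with 95% counting intervals cut off at the axis limits. All 5 lie below 0 in bone and in the rim, and 4 of the 5, all but S100b, lie above 0 in the remaining spots. Ncmap reached 20 UMIs in bone through the Control section, so that its direction there was close to fixed.

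Axon genes and nerve sheath genes were read from 2 further lists, and the number of axons was not measured. The 15 axon genes gave 55 UMIs in Control and 28 in Loaded bone (−0.55, −1.26 to 0.13) and 94 and 53 in the rim (−0.94, −1.46 to −0.44). Only *Uchl1* and *Stmn2* had at least 10 UMIs in bone. *Uchl1*, a ubiquitin hydrolase abundant in neurons, gave 26 and 9 UMIs there (−1.10, −2.38 to 0.04) and 52 and 22 in the rim (−1.36, −2.15 to −0.61). *Stmn2*, a tubulin-binding protein of growing axons, gave 14 and 10 (−0.06, −1.39 to 1.22) and 16 and 13. The neurofilament genes *Nefl*, *Nefm* and *Nefh*, whose transcripts lie mainly in nerve cell bodies outside the bone, gave at most 1 UMI in each bone region. The 5 genes of the perineurium, the sheath around nerve bundles, gave 125 and 35 UMIs in bone (−1.41, −1.99 to −0.86), 186 and 83 in the rim (−1.28, −1.67 to −0.90), and 384 and 237 in the remaining spots (0.00, −0.24 to 0.24). *Cldn1*, a tight junction protein of that sheath, gave 38 and 2 UMIs in bone (−3.82, −6.92 to −1.87), and *Slc2a1*, the glucose transporter, 40 and 20 (−0.57, −1.43 to 0.24). *Cldn1* reached 10 UMIs in bone through the Control section, so that its direction was close to fixed, and both genes were named after their values were seen. They are the lowest and the highest of the 3 perineurial genes with at least 10 UMIs in bone, whose median was −1.48. Perineurial genes stood at 0.981 (0.799 to 1.19) in the right and 0.340 (0.218 to 0.506) in the left wall of Control bone.

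Across all spots, the genes whose values followed the sum of the 5 most closely in both sections, by the lower of the Pearson correlations of the sections among 9440 genes, were *Apod* (0.23 over 1898 Control and 0.20 over 1431 Loaded spots), *Plekha4* (0.19 and 0.15), *Sfrp5* (0.24 and 0.15), *Nbl1* (0.28 and 0.15) and *Igfbp7* (0.24 and 0.15). Spots share their section and depth, and correlations this weak are a description only. Genes chosen because they follow the sum over these spots tend to share its regional differences, so the ratios below are a description too. *Sfrp5*, a secreted inhibitor of WNT signaling, gave 40 and 3 UMIs in bone (−3.31, −5.65 to −1.66), 97 and 13 in the rim (−3.02, −3.98 to −2.17), and 44 and 58 in the remaining spots (1.10, 0.51 to 1.70). *Nbl1*, a secreted BMP antagonist, had log2 ratios of −2.03 (−2.29 to −1.78), −2.06 (−2.23 to −1.90) and −0.03 (−0.13 to 0.08) in the same regions, from 841, 1444 and 1931 Control UMIs. The other 3 of these genes were nearer to 0 in bone. *Plekha4* was at −1.42 (−2.29 to −0.62), −1.62 (−2.12 to −1.15) and 0.80 (0.46 to 1.15). *Apod*, a lipid-binding protein, was at −1.14 (−1.51 to −0.77), −1.02 (−1.24 to −0.80) and −0.30 (−0.44 to −0.16), and *Igfbp7*, a secreted protein that binds insulin-like growth factors, at −0.91 (−1.06 to −0.76), −0.58 (−0.68 to −0.48) and 0.05 (−0.013 to 0.12).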

How the data were processed

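Visium probe libraries of 1 Control and 1 Loaded FFPE section were measured. The authors counted UMIs per gene and spot with Space Ranger 2.0.0, and the deposited values are these raw counts, without normalization and with mm10 as the build per the labels. Spots with at least 500 UMIs and 250 genes were kept (64 Control and 5 Loaded spots were left out). Total counts were 9002147 in the Control and 4910716 in the Loaded section. Size factors came from scran 1.30.0 (R 4.3.3) over the kept spots of both sections. A level is the summed UMIs over the summed size factors of a region. Neighboring spot centers lie 100 μm apart, and bone walls were split from spot positions alone. Intervals are exact Poisson (levels), binomial at the expected count of spots (shares) and conditional binomial (ratios). They cover counting error only, and those of shares treat spots of 1 section as independent draws. Called means 2-fold, among genes with at least 10 UMIs over both sections. A sum of 0 was replaced by 3 UMIs for a bound.

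The study tested spots, which was not repeated, since spots of 1 section are not replicates. The 5 genes and the lists were chosen with earlier results of these data known. Named beside the 5 were list genes with at least 20 UMIs over both bone regions, those at 0 in 1 bone region with at least 10 in the other, and the 5 genes best correlated with the sum. Perineurial genes and *Nefl*, *Nefm* and *Nefh* were named after their values were seen. Gene positions came from GENCODE M21. Alternatives were library totals, TMM (edgeR 4.0.16), median-of-ratios and other scalings, no spot filter, equal weight per spot, muscle limits, other rims, blocks left out and other thresholds. Shares after thinning are expectations over all draws (hypergeometric), a choice made after the data were seen, in place of 1 random draw, whose outcome varies. The computations were tested on simulated counts. Python 3.11.15, numpy 2.4.6, scipy 1.17.1, pandas 2.3.3 and matplotlib 3.10.9 were used. Section images were not used here, and 2 genes of the myelin list are not reported here.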

Additional observations from a re-analysis of the deposited data

Results flagged for a closer look

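The Loaded over Control log2 ratio had opposite signs in the rim and in the remaining spots for *Mbp*, *Pmp22* and the 5 genes summed. Their counting intervals lay on either side of 0. Rim minus remaining, the log2 ratios differed by −2.02 for the sum (−1.57 and 0.45), −1.96 for *Mbp* and −1.70 for *Pmp22*. For *Prx* the value was −4.48, but *Prx* reached 10 UMIs in the rim through the Control section and is not counted here. The value for *Sox10* was −5.68, from 9 Control and 1 Loaded UMI in the rim and 4 and 13 in the remaining spots. *Sox10* reached 10 UMIs in each region mainly through 1 section, so that its direction was close to fixed and it is not counted here. These differences were not tested, since each section has no replicate. The sign in the remaining spots changed for the sum, *Mbp*, *Pmp22* and *Sox10* when the lower left Control block and the upper right Loaded block were left out.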

How the results depend on the processing

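No paired analysis was possible because each group has 1 section, and no replicate could be left out. In bone, the summed log2 ratio of the 5 genes (−1.42) stayed below 0 under all 12 alternative settings of scaling, filter, weight, muscle share and block. It ranged from −1.995 to −0.78 as each of 4 blocks was dropped, and it was −0.30 with the right side of the Control section left out, which also turned *Prx* to 1.13. In the rim (−1.57) it stayed below 0 under all 17 settings of that kind. It was −1.83 over spots with a muscle share below 5%, −1.27 for a rim of 350 μm, −1.21 and −1.17 on the cavity side and beyond the ends, and from −2.18 to −0.64 as blocks were dropped. It was −0.99 without the 20 highest spots and turned to 0.46 without the right side of the Control section, as did *Mbp* (0.86) and *Pmp22* (0.42). *Mbp* was at −0.42 on the cavity side and turned to 0.64 beyond the ends. In the remaining spots (0.45) it was 0.83 with library totals, 0.089 with equal weight per spot, 0.66 at a muscle share of at least 10%, 0.78 without the right side of the Control section and 0.24 without the 20 highest spots. It turned to −0.10 at a muscle share below 5%, where *Pmp22* was at −0.69, and ranged from −0.28 to 0.74 as blocks were dropped. Under the same block, the lower left of Control and the upper right of Loaded, *Mbp* was at −0.25, *Pmp22* at −0.42 and *Sox10* at −0.043 (up to 3.10 with another block left out). The cause of these changes was not tested. The alternatives that drop the right Control side or the highest spots were chosen after the data were seen. The share of all genes lower in Loaded was 19.0% in bone, 15.9% in the rim and 9.14% in the remaining spots for genes with at least 1 UMI, 17.6%, 17.7% and 14.8% at 1.5-fold, and 3.98% in the rim for genes with at least 50 UMIs. Shares of spots with a UMI, thinned to 500 UMIs, were 20.7% and 9.37% in Control and Loaded bone, 17.3% and 8.10% in the rim, and 7.54% and 8.14% in the remaining spots. Without thinning they were 67.2% and 37.7%, 50.6% and 42.4%, and 30.6% and 34.0%. *Mag* and *Sox10* had at most 3 UMIs in any bone region, and a change in them there was not detectable at this depth.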

Other observations

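Some axon genes had fewer than 10 UMIs in bone but at least 10 in the remaining spots. There 9 of the 15 had as many, of which 1 was lower in Loaded by 2-fold or more and 3 were higher. Among all genes with as many UMIs there, 5.6% were lower and 6.78% higher. *Prph*, an intermediate filament of peripheral neurons, gave 25 UMIs in Control and 2 in Loaded spots (log2 ratio −2.94, −6.07 to −0.94). *Th*, the enzyme of noradrenaline synthesis that marks sympathetic neurons, gave 3 and 11 (2.57, 0.65 to 5.05). *Mal*, a lipid raft protein of myelinating cells from the list of other myelin and Schwann cell genes, gave 7 and 27 (2.65, 1.41 to 4.09). In the same spots the sum of the 15 axon genes stood at 0.13 (−0.15 to 0.40). *Prph*, *Th* and *Mal* were singled out after their values were seen. Each reached 10 UMIs through the section where it was higher, so that its direction was close to fixed by that limit. The counts of axon genes above are thus a description.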
